A study of Homo sapiens with 8 samples.

Results

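The 55 keratin genes examined here are the protein-coding genes of GENCODE release 44 on chromosomes 12 and 17 whose symbol is KRT followed by a number, taken from 19970 protein-coding genes on the main chromosomes. Genes for keratin-associated proteins were not included. The genes were sorted by the tissue in which the protein is best known: 5 simple keratins (KRT7, KRT8, KRT18, KRT19, KRT20), 4 basal keratins (KRT5, KRT14, KRT15, KRT17), 16 stratified keratins, 17 hair keratins, 9 keratins of the hair root sheath and 4 others (KRT23, KRT24, KRT80, KRT222). The histone marks at their transcription start sites (TSS) were read from native ChIP-seq of SUM159, an established triple-negative breast cancer cell line with mesenchymal features. All cells carried dCas9-KRAB, a nuclease-dead Cas9 fused to a repressor domain, expressed from an integrated lentiviral vector under a ubiquitin C promoter and selected with puromycin. The All gRNA cells also carried 4 guides to the promoter of ZEB1, a repressor of epithelial genes, and the No gRNA cells carried no targeting guide. Each group had 2 libraries, labelled as biological replicates, for H3K4me3, a mark of active and poised promoters, and 2 for H3K9me3, a mark of silenced chromatin. The deposited data are 8 lists of broad peaks without counts of reads, and how deeply each library was sequenced is unknown.

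Keratins are the intermediate filament proteins of epithelial cells. A type I keratin pairs with a type II keratin to form the filament, so each epithelium uses particular pairs, such as KRT8 with KRT18 in simple epithelia and KRT5 with KRT14 in the basal layer of stratified epithelia. Type II genes and KRT18 lie together on chromosome 12 and the other type I genes on chromosome 17, where hair keratins sit among genes for keratin-associated proteins. Cells that pass through an epithelial to mesenchymal transition (EMT) usually lose keratins and gain vimentin, and the study silenced ZEB1 to turn that transition back.

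The value reported for each gene is the share of a fixed window covered by peaks, in percent of bases. The window was TSS ± 1 kb for H3K4me3 and TSS ± 10 kb for H3K9me3. Values are given in the order All gRNA replicate 1, All gRNA replicate 2, No gRNA replicate 1 and No gRNA replicate 2 unless stated. All deposited peaks were used, including many weak ones, and a second reading kept peaks with q ≤ 0.05. The gap of a gene is the distance between its groups, negative where All gRNA was lower and 0 where they overlapped. A gene was called higher or lower in All gRNA when every library of one group exceeded every library of the other by 25 percentage points or more. An exact permutation test over 2 against 2 libraries cannot give a p below 0.33, so no single keratin could pass a 0.05 threshold.

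Several facts of the whole series touch these values. The names of 2 of the 4 H3K4me3 files give the other condition than the label, those of the libraries labelled All gRNA replicate 2 and No gRNA replicate 1. At ZEB1 itself the H3K9me3 share was 75.8%, 80.9%, 4.57% and 1.33%, which follows the labels. The H3K4me3 share at ZEB1 was 32.3%, 100%, 0% and 100%, which does not. The libraries with 32.3% and 0% are those whose file name gives All gRNA. Every H3K4me3 direction below is therefore a direction between labels. Listed H3K4me3 peaks covered 20.6% to 30.8% of the genome and listed H3K9me3 peaks 23.9% to 25.4%. Of the mesenchymal markers, VIM and FN1 were fully covered by H3K4me3 in all 4 libraries. The epithelial genes were uneven, with 93.6%, 24.2%, 84.1% and 91.6% at CDH1, 100%, 51.4%, 32.7% and 70.1% at EPCAM, and 100%, 100%, 19.8% and 100% at ESRP1.

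Keratin starts carried less H3K4me3 than those of most genes, few of them had a strong peak, and a few were fully covered in every library. In bulk chromatin, a mark present in fewer cells and a weaker mark in every cell cannot be told apart. The mean share over the 55 keratins was 29.5%, 37.8%, 49.5% and 39.9%, against 71.3%, 74.4%, 67.2% and 76.1% over all genes. The No gRNA-labelled replicate 1 library was the highest for keratins and the lowest for all genes. Full coverage of the window was seen at 7, 7, 13 and 10 keratins (12.7%, 12.7%, 23.6% and 18.2% of them), while 51.9%, 55.5%, 48.6% and 59.3% of all genes were fully covered. Strong peaks were scarcer still. A peak with q ≤ 0.05 lay at 2, 2, 6 and 4 keratins. These were 3.64%, 3.64%, 10.9% and 7.27% of the keratins, and in 3 of the 4 libraries the share was below that of all genes, which was 34.6%, 12.1%, 9.49% and 54.6%. The exception was again the No gRNA-labelled replicate 1 library.

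**Figure D1:**
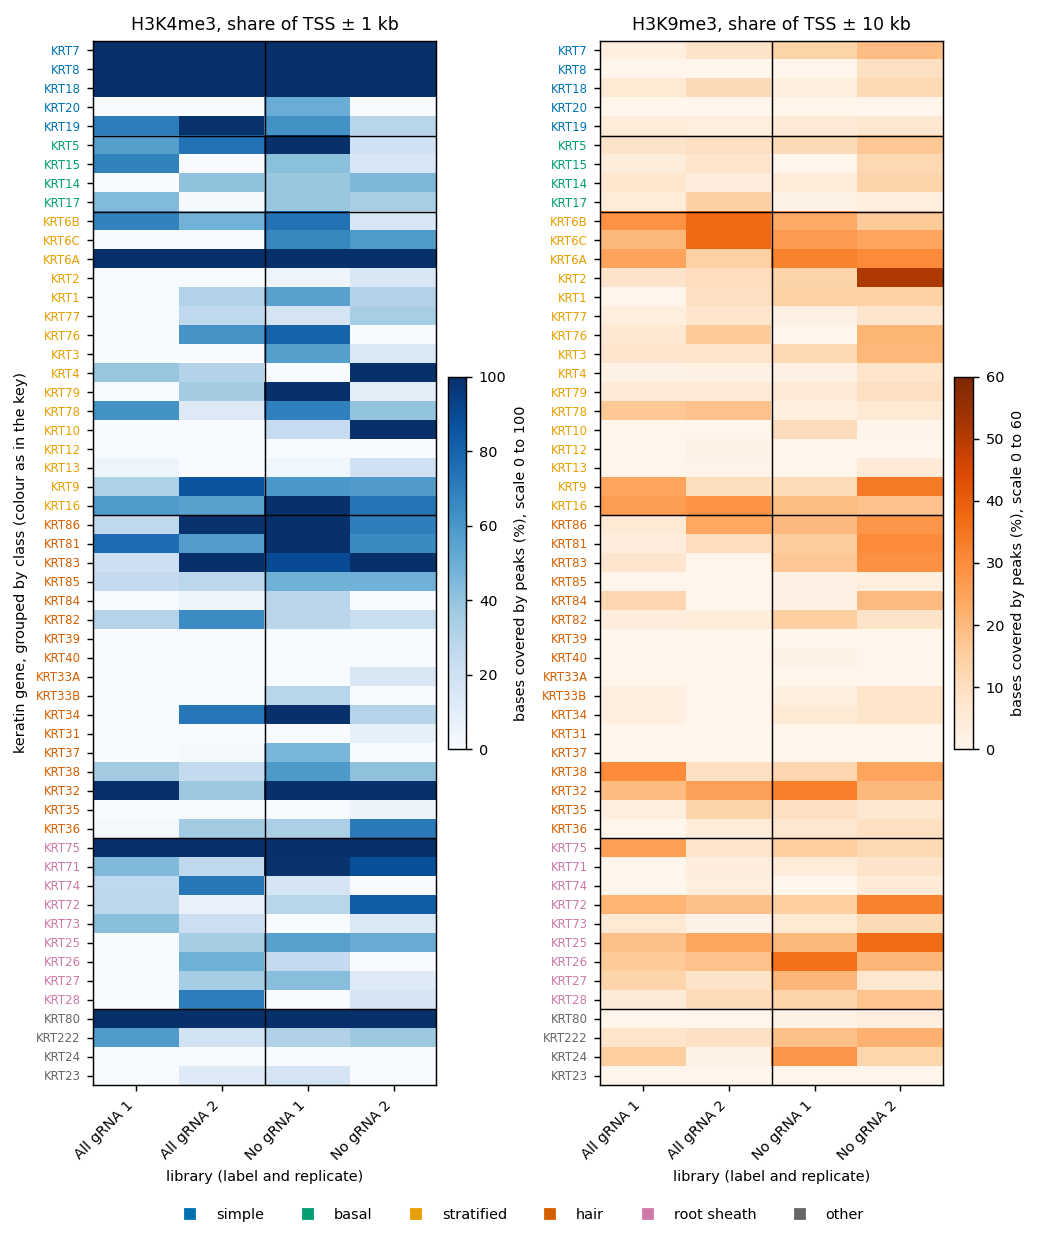
Share of the window covered by deposited peaks at each of the 55 keratin genes (rows, grouped and coloured by class) in each library (columns), in percent of bases. The left panel shows H3K4me3 in TSS ± 1 kb on a scale of 0 to 100 and the right panel H3K9me3 in TSS ± 10 kb on a scale of 0 to 60. KRT7, KRT8, KRT18, KRT6A, KRT75 and KRT80 are fully covered by H3K4me3 in all 4 libraries.

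The promoters of keratins differ from most others in their bases. In a window of 500 bases on each side of the TSS, the ratio of observed to expected CpG dinucleotides had a median of 0.269 over the keratins and 0.725 over all genes. A ratio of at least 0.6 was found at 4 keratins, KRT19 (0.752), KRT7 (0.713), KRT18 (0.691) and KRT72 (0.611), which is 7.27% of them against 66.3% of all genes. RefSeq promoter entries of 300 bases, from 250 before a start to 50 after it, were matched for 34 of the 55 keratins by symbol. No entry was matched for KRT7, KRT18, KRT19, KRT72, KRT6A or KRT80. The KRT8 entry lay 21393 bases from the canonical start, and some entries of KRT40 and KRT85 lay 2675 to 2859 bases away. The TATA motif TATAAA, searched on both strands, was present in 21 of the 38 keratin entries (55.3%) and in 9.45% of 21571 entries of protein-coding genes. The letters CACCTG, an E-box of the kind ZEB1 can bind, were present on one strand or the other in 8 of the 38 entries (21.1%) and in 19.9% of all entries. The matched entries thus held it at about the general rate, and the keratins without an entry were not searched. Neither motif contains a CpG or can overlap the other.

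The 250 bases before the start are printed for 4 keratins that differ in their H3K4me3, from RefSeq on build GRCh38.p14, with CpG dinucleotides in capitals. KRT75 was fully covered in all 4 libraries, KRT71 met the rule for a lower share in All gRNA, KRT10 lay just outside that rule, and KRT12 had no peak in any library.
KRT75, chr12:52434372-52434621, minus strand: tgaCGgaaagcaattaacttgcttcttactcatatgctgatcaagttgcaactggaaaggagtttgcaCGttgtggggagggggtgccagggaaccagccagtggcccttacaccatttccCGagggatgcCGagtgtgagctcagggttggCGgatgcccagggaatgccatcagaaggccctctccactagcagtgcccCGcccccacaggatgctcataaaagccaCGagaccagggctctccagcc
KRT71, chr12:52553146-52553395, minus strand: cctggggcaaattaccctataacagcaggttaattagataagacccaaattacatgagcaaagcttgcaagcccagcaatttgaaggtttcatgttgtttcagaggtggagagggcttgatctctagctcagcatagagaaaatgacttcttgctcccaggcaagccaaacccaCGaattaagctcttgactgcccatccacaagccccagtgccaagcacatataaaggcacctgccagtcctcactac
KRT10, chr17:40822615-40822864, minus strand: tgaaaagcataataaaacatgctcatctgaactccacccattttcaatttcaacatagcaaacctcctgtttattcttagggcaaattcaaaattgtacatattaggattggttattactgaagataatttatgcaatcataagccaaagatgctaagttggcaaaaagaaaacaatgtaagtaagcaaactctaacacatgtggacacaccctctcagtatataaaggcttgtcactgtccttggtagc
KRT12, chr17:40867224-40867473, minus strand: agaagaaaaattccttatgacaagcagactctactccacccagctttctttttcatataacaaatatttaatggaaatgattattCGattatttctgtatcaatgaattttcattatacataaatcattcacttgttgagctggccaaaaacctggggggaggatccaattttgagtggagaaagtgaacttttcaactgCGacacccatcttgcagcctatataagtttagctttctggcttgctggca
KRT75 holds 7 CpG, KRT71 holds 1, KRT10 holds 0 and KRT12 holds 2.

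Among the simple keratins, the filament pair of glandular epithelia was marked in every library. KRT7, KRT8 and KRT18 were fully covered by H3K4me3 in all 4, and the class mean was 74.0%, 79.8%, 82.6% and 65.8%. The hair keratins, taken as the class to compare with, had means of 18.7%, 31.1%, 44.9% and 34.0%. The difference of simple minus hair was therefore 55.3, 48.7, 37.8 and 31.8 percentage points (mean 43.4 ± 10.6, SD, n = 4), positive in 4 of 4 libraries. Hair was the lowest class in All gRNA replicate 1 only. Basal keratins were lower in the replicate 2 libraries (29.3% and 29.0%) and the 4 others in No gRNA replicate 1 (37.3%).

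KRT7 and KRT18 were the keratins with a peak of q ≤ 0.05 in all 4 libraries, which is 3.64% of the keratins and close to the 3.205% of all genes. KRT7, the type II keratin of ducts and glands, had q = 0.00236, 0.0294, 0.00364 and 0.00109. The peak at KRT7 was 12577, 34898, 116284 and 36901 bases wide. In the No gRNA-labelled replicate 1 library it reached 92821 bases upstream and took in the start of KRT80 as well. KRT18, the type I partner of KRT8, had q = 0.0163, 0.0244, 0.0251 and 0.000709. Its peak was much steadier in width, at 9282, 10235, 11132 and 10338 bases.

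KRT8 was fully covered but by weaker peaks, with q = 0.0865, 0.259, 0.108 and 0.0729. These values are for the Ensembl canonical start. KRT8 has a long annotated form whose 5′ end lies 44878 bases away, inside KRT18, so a start taken at the end of the gene record would read the mark of KRT18 in its place. A RefSeq start of KRT8 lies 21393 bases upstream of the canonical one, and a peak in the No gRNA-labelled replicate 1 library spanned it (chr12:52921951-52929422, q = 0.04998).

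KRT19, the smallest keratin and a marker of luminal cells that the study followed as a protein, had an H3K4me3 share of 70.2%, 99.0%, 62.4% and 29.1%. Both All gRNA libraries were above both No gRNA libraries, with a gap of 7.75 points. Such a separation upward, of any size, was found at 7.27% of keratins and 6.11% of all genes. The difference of the means was 38.8 points with a pooled SD of 22.02, and the exact permutation test gave p = 0.33, the smallest it allows. With the labels of the 2 libraries whose file names give the other condition exchanged, the groups would overlap at KRT19. The strongest peak there had q between 0.132 and 0.878. KRT20, a keratin of gut epithelium and urothelium, had 0%, 0%, 50.7% and 0%, from a single peak of 1015 bases with q = 0.998.

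**Figure D2:**
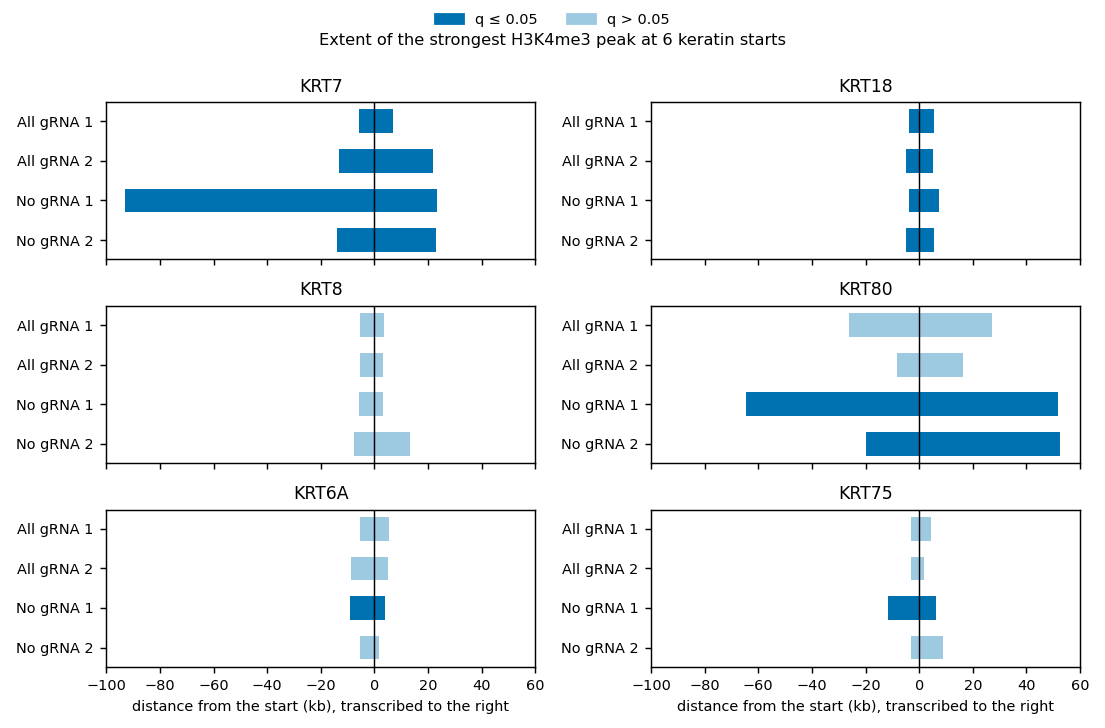
Extent of the strongest H3K4me3 peak at the 6 keratin starts that were fully covered in all 4 libraries, in kb from the start with the direction of transcription to the right. Each bar is 1 library, dark where q ≤ 0.05. KRT18 has a peak of about the same width in each library, while the peak at KRT7 and KRT80 in the No gRNA-labelled replicate 1 library is the same 116284-base region.

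The basal keratins had intermediate and uneven shares, and at none of them was a peak with q ≤ 0.05 found in any library. KRT5, the type II keratin of basal cells, had 56.5%, 74.6%, 100% and 19.9%. Its partner KRT14 had 0%, 40.9%, 38.6% and 45.7%. The No gRNA-labelled libraries were far apart at KRT5 and close together at KRT14. KRT15, another basal type I keratin, had 68.6%, 0%, 42.0% and 15.9%. KRT17, a keratin of basal and wounded epithelium, had 44.2%, 1.90%, 38.6% and 34.6%. At all of KRT5, KRT15, KRT14 and KRT17 the 2 groups overlapped.

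Outside these classes, KRT6A, KRT75 and KRT80 were fully covered in all 4 libraries, which brings the number to 6 of 55 (10.9%, against 34.5% of all genes). KRT6A, a stratified keratin induced by wounding, passed q ≤ 0.05 in 1 library, labelled No gRNA replicate 1 (q = 0.00111). KRT75, a keratin of the hair follicle's companion layer, did so in the same library (q = 0.0316). KRT80, a widely expressed type II keratin, had q = 0.141, 0.0708, 0.00364 and 0.0155. With peaks of q ≤ 0.05 KRT80 thus read 0%, 0%, 100% and 100%. It was the 1 keratin (1.82%) that met the rule for a lower share in All gRNA at that threshold, which 1.69% of all genes did. With the labels of the 2 libraries whose file names give the other condition exchanged, the groups would overlap at KRT80 as well. With all deposited peaks KRT80 did not differ, at 100% in each library.

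Among all 55, a peak of q ≤ 0.05 was found in at least 1 library at 7 keratins (12.7%, against 56.7% of all genes). Beside KRT7, KRT18, KRT6A, KRT75 and KRT80 these were KRT10 and the hair keratin KRT81. KRT81 had the lowest q of any keratin, 1.11e-05, at a peak of 21179 bases and 4.09-fold enrichment in the No gRNA-labelled replicate 1 library. In the other libraries its q was 0.486, 0.529 and 0.322. KRT6A, KRT6B and KRT6C are near-identical in sequence, KRT81, KRT83 and KRT86 are close relatives, and so are KRT14, KRT16 and KRT17. Reads may be split or misplaced within each of these groups, which was not tested.

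**Figure D3:**
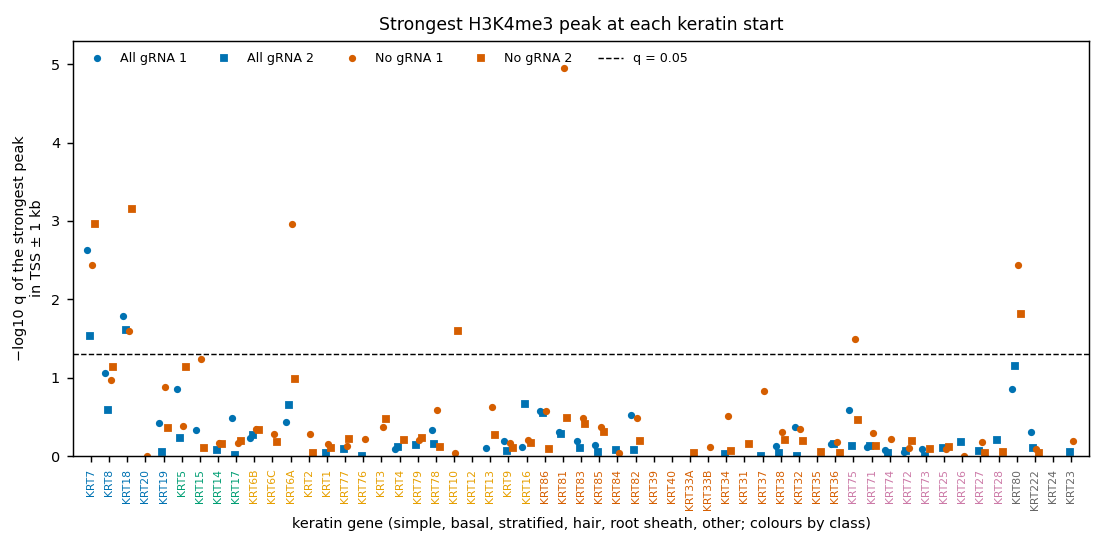
The −log10 q of the strongest H3K4me3 peak in TSS ± 1 kb at each keratin, with 1 point for each library that had a peak. The dashed line marks q = 0.05. KRT7 and KRT18 lie above it in all 4 libraries, and the highest point is KRT81 in the No gRNA-labelled replicate 1 library.

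No keratin was called higher in All gRNA for H3K4me3 with all deposited peaks, where 1.67% of all genes were. There were 2 called lower (3.64%), where 1.87% of all genes were, and with this window and all peaks the share in keratins was near the background. In TSS ± 500 bases it was 6 keratins (10.9%, against 1.93% of all genes), and with every list shortened to the same covered length 4 (7.27%, against 1.07%). KRT6C, a stratified keratin of palm and sole skin, had 0%, 0%, 66.2% and 58.6%. The gap was −58.6 points and the difference of the means −62.4 points (pooled SD 3.77, exact permutation p = 0.33). KRT71, a type II keratin of the inner root sheath, had 44.8%, 26.6%, 98.5% and 88.0%. Its gap of −43.1 points was the smaller of the 2, with a difference of the means of −57.5 points (pooled SD 10.5, exact permutation p = 0.33). The peaks behind both were weak. With the labels of the 2 libraries in doubt exchanged, the groups would overlap at both genes. At KRT6C the q was 0.517 and 0.653 in the 2 libraries that had a peak, and at KRT71 it lay between 0.502 and 0.759.

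KRT10, the type I keratin of differentiating epidermis, lay just outside the rule. Its H3K4me3 share was 0%, 0%, 24.9% and 100%, a gap of −24.9 points. In the No gRNA-labelled replicate 2 library a peak with q = 0.0255 spanned the start. In the All gRNA-labelled replicate 1 library a peak with q = 0.0279 lay over the 3′ part of the gene and beyond it, and ended short of the window (chr17:40815948-40820675, with the start at 40822614). The absence of cover at the KRT10 start in that library therefore came with a peak of like strength just downstream.

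The counts depended on which libraries were compared. Between the All gRNA-labelled replicate 1 library and the No gRNA-labelled replicate 2 library, whose file names carry their own label, 6 keratins were higher by at least 25 points (10.9%) and 14 lower (25.5%). Among all genes 6.92% were higher and 14.6% lower. KRT6C and KRT71 were among the 14, and KRT5, KRT15 and KRT19 among the 6. Leaving out 1 of the 4 libraries gave 5, 10, 6 and 10 keratins lower (9.09%, 18.2%, 10.9% and 18.2%), and 1 to 5 higher. The library left out was All gRNA replicate 1, All gRNA replicate 2, No gRNA replicate 1 and No gRNA replicate 2 in turn. In these runs 4.35%, 5.84%, 6.61% and 5.27% of all genes were lower, and 3.24% to 12.2% higher. The rule is easier to meet with fewer libraries, and a gene called with all 4 stays called. KRT6C and KRT71 therefore had to be among those lower in the single pair and each time a library was left out. The comparison of a single pair, chosen after seeing the data, has 1 library a group and no replicate check.

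Without any threshold, keratins read lower in All gRNA more often than higher. The mean of the 2 All gRNA libraries was below that of the 2 No gRNA libraries at 34 keratins (61.8%, against 29.2% of all genes). It was above at 11 (20.0%, against 33.0%) and equal at 10. Of the 19970 genes, 7560 were equal. Full cover in all 4 libraries held for 34.5% of all genes and 10.9% of keratins, so the 2 sets were not equally free to differ. The median difference was −9.60 points over keratins and 0 over all genes. By class, 14 of 17 hair, 12 of 16 stratified, 4 of 9 root sheath, 2 of 4 basal and 1 of 5 simple keratins were lower, and a difference between classes was not tested. KRT7, KRT8 and KRT18 were at 100% in every library and could not differ. Without the No gRNA-labelled replicate 1 library, the median difference over keratins was 0, and without the All gRNA-labelled replicate 1 library it was −2.90. It was −3.52 with lists of the same covered length, 0 at q ≤ 0.05, and 0 without both libraries whose file is named for the other condition. These 2 have the higher keratin mean of their labelled group, so the direction over all 4 libraries rests on the labels. Between the other 2, the keratin mean was 29.5% in All gRNA replicate 1 and 39.9% in No gRNA replicate 2. Over all genes those libraries had 71.3% and 76.1%.

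**Figure D4:**
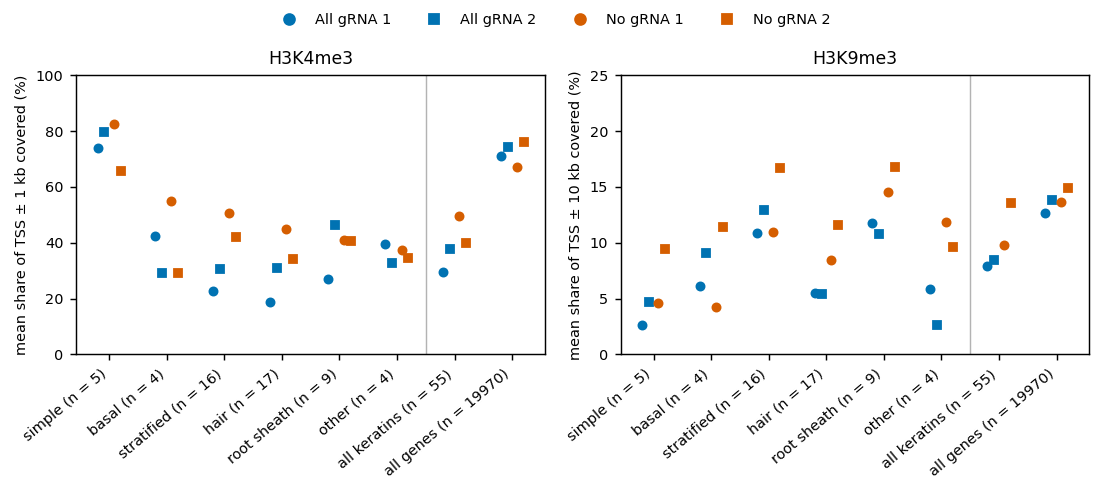
Mean share of the window covered by peaks in each keratin class, in all keratins and in all genes, with 1 point for each library (blue All gRNA, orange No gRNA, circle replicate 1, square replicate 2). Left, H3K4me3 in TSS ± 1 kb; right, H3K9me3 in TSS ± 10 kb, both in percent of bases. Simple keratins are the highest class for H3K4me3 in every library, and each of the other keratin classes is below all genes in every library.

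The unmarked end of the family was on chromosome 17. KRT12, KRT24, KRT39 and KRT40 had no H3K4me3 peak in the window in any library (7.27% of keratins, against 3.30% of all genes). KRT12 is a keratin of the cornea, and KRT39 and KRT40 are hair keratins. Among hair keratins the highest mean over the 4 libraries was at KRT32, with 100%, 37.7%, 100% and 100%, although no peak there passed q ≤ 0.05. The lowest root sheath keratin was KRT26, with 0%, 49.1%, 25.3% and 0%.

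High H3K4me3 did not always go with a CpG-rich start. KRT7 and KRT18 were both rich in CpG and marked. KRT8 (ratio 0.344), KRT75 (0.312), KRT80 (0.293) and KRT6A (0.234) were poor in CpG and fully covered in all 4 libraries. KRT19, with the highest ratio of the keratins, had a mean share of 65.2%, and KRT72 36.7%. Over the 51 keratins with a ratio under 0.6 the mean share was 26.0%, 34.8%, 47.7% and 37.0%, against 41.5%, 46.8%, 43.4% and 48.0% over the 6722 genes below the same ratio. A peak of q ≤ 0.05 in any library was found at 5 of the 51 (9.80%) and at 20.8% of the 6722 genes.

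**Figure D5:**
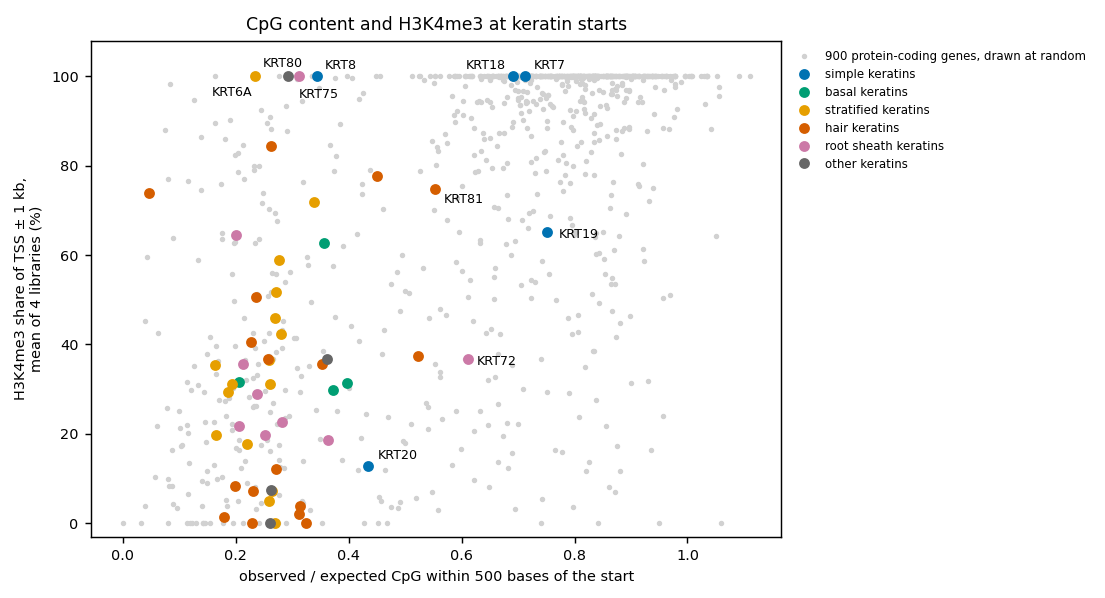
Mean H3K4me3 share of TSS ± 1 kb over the 4 libraries, in percent of bases, against the ratio of observed to expected CpG within 500 bases of the start. Coloured points are the 55 keratins by class and grey points 900 genes drawn at random for display. KRT7 and KRT18 sit with the CpG-rich marked genes, and KRT6A, KRT80, KRT75 and KRT8 are fully covered at ratios under 0.6.

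The 2 keratin clusters differed in H3K4me3. From the first to the last keratin, the cluster on chromosome 12 (chr12:52168996-52952906, 27 keratins) was covered over 41.7%, 48.7%, 59.1% and 49.6% of its bases. The cluster on chromosome 17 (chr17:40654665-41624842, 28 keratins) was covered over 16.5%, 20.3%, 32.8% and 18.9%. The first was above the second in 4 of 4 libraries. Its surroundings were marked too, with 34.9% to 43.3% over the 1 Mb before it and 56.3% to 70.5% over the 1 Mb after it. The chromosome 17 cluster was instead a trough, since the 1 Mb before it had 63.4% to 71.0% and the 1 Mb after it 64.7% to 78.6%. Within it, the interval of keratin-associated protein genes between its 2 groups of keratins had 5.37%, 8.33%, 17.2% and 5.96%.

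Strong peaks were also unevenly spread over the clusters. On chromosome 12, peaks of q ≤ 0.05 numbered 2, 2, 6 and 3 and covered 2.57%, 5.58%, 19.8% and 11.3% of the cluster. On the whole of chromosome 12 the same peaks covered 2.41%, 0.881%, 2.04% and 5.08%. In the No gRNA-labelled replicate 1 library, 5 of the 6 peaks took in the starts of KRT80 and KRT7 (1 peak), KRT81, KRT75, KRT6A and KRT18, and the other lay within KRT8 away from its canonical start. On chromosome 17 there were 1, 0, 0 and 1, and both touched KRT10.

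By mean share, H3K9me3 was lower over the keratins than over all genes, and no member was called. The mean share was 7.89%, 8.46%, 9.78% and 13.6%, against 12.7%, 13.8%, 13.6% and 14.9% over all genes. By median the keratins were not low. The share averaged over the 4 libraries had a median of 8.22% over the keratins and 5.91% over all genes. In No gRNA replicate 1 alone the keratin median was the lower one, at 5.92% against 6.4997%. None of the 55 was called higher in All gRNA, where 0.185% of all genes were, and none lower, where 0.0401% were. Without No gRNA replicate 1, the stratified keratin KRT2 was called lower (1.82% of keratins, against 0.486% of all genes). Windows of 20001 bases overlap between neighbours at 39 of the 55 keratins, so neighbouring values share peaks.

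The simple keratins had low H3K9me3, with class means of 2.63%, 4.68%, 4.57% and 9.47%. KRT8 had 0%, 0%, 0% and 9.44%, KRT19 had 4.09%, 3.31%, 5.46% and 6.97%, and KRT20 had 0% in each library. KRT7 had 3.01%, 8.46%, 14.0% and 19.1%, and KRT18 had 6.03%, 11.6%, 3.41% and 11.8%. The groups did not overlap at KRT7 and KRT19, where All gRNA was lower, with gaps of −5.53 and −1.37 points. They overlapped at KRT18. A separation downward of any size, as at KRT7 and KRT19, was common, at 40% of keratins and 24.3% of all genes. Simple minus hair was −2.83, −0.714, −3.88 and −2.07 points, a small difference next to that for H3K4me3.

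Basal keratins held H3K9me3 shares between 0% and 16.8%. KRT5 had 8.37%, 9.49%, 11.6% and 16.8%. Its partner KRT14 had 7.05%, 3.85%, 4.16% and 13.5%. KRT15 had 4.09%, 8.09%, 0% and 11.96%, and KRT17 had 4.92%, 14.8%, 1.23% and 3.51%. The groups overlapped at KRT14 and KRT15. All gRNA was lower at KRT5, by a gap of −2.14 points. At KRT17 both All gRNA libraries were higher, by a gap of 1.40 points. A separation upward of any size was found at 7.27% of keratins and 10.7% of all genes.

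The highest H3K9me3 lay at KRT6C, with 20.4%, 37.4%, 26.8% and 24.5% (mean 27.3%), a level above that of 86.1% of all genes. Its near-identical neighbours KRT6B and KRT6A followed with means of 26.3% and 25.5%. No peak of q ≤ 0.05 reached the window of KRT6C, KRT6B or KRT6A in any library. Listed H3K9me3 peaks covered 24.97%, 25.9%, 23.9% and 23.8% of the whole of chromosome 12. The means of KRT6C, KRT6B and KRT6A were thus high among keratins but near the share of their chromosome. KRT6A combined full H3K4me3 cover of its start with 24.9%, 14.3%, 32.2% and 30.6% H3K9me3 in the wider window. The next were KRT25, a root sheath keratin (mean 24.9%), and KRT32 (24.5%). The highest value in 1 library was 50.9%, at KRT2 in No gRNA replicate 2, where the other 3 libraries had 8.32%, 10.5% and 13.6%. At the other end, KRT20, KRT23, KRT33A, KRT37 and KRT39 had 0% in all 4 libraries.

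Strong H3K9me3 peaks were few near keratins, as they were near all genes. A peak of q ≤ 0.05 reached the window of 3, 4, 2 and 1 keratins, which was 5.45%, 7.27%, 3.64% and 1.82% of them against 6.32%, 5.77%, 3.42% and 10.0% of all genes. At least 1 library had such a peak at 8 keratins (14.5%, against 14.1% of all genes). No keratin had one in all 4 libraries, against 1.80% of all genes. The widest within the clusters lay at the 3′ end of KRT16, a stress keratin of the epidermis, at chr17:41605496-41609791 in All gRNA replicate 1 and chr17:41605428-41610173 in All gRNA replicate 2. The q of the strongest peak at KRT16 was 0.0120, 0.0306, 0.0662 and 0.0631, and its share was 26.4%, 28.4%, 19.2% and 18.0%. The same region thus held a peak in each library, and the threshold separated the groups. The largest gap upward was at KRT78, with 16.7%, 18.2%, 2.81% and 5.88%, and the largest downward at KRT83, with 7.50%, 0%, 17.04% and 29.0%. These were gaps of 10.8 and −9.54 points, inside the 25 points of the rule.

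Small shares were more often lower than higher in All gRNA. For H3K9me3, 37 keratins were lower (67.3%, against 58.0% of all genes), 13 higher (23.6%, against 31.8%) and 5 equal. The median difference was −3.32 points over keratins and −0.965 over all genes. Without No gRNA replicate 2 the keratin median was −0.225. Over the whole chromosome 12 cluster the share was 8.49%, 9.92%, 10.3% and 16.4%, a difference of −4.13 points (pooled SD 3.16, exact permutation p = 0.33). Over the chromosome 17 cluster it was 5.98%, 5.94%, 8.47% and 8.11%, a difference of −2.34 points (pooled SD 0.182, exact permutation p = 0.33). The groups did not overlap in either cluster. The chromosome 12 difference was −1.05 without No gRNA replicate 2 and −7.21 without No gRNA replicate 1. Outside the keratins the groups also did not overlap, All gRNA being lower, at 3 of the 4 flanks, with 4.81%, 4.95%, 6.47% and 8.61% over the 1 Mb before the chromosome 17 cluster 0.754%, 0.979%, 2.32% and 3.52% over the 1 Mb after it, and 3.15%, 3.04%, 6.16% and 7.21% over the 1 Mb after the chromosome 12 cluster. They overlapped over the 1 Mb before the chromosome 12 cluster (10.2%, 12.9%, 12.2% and 15.8%) and over the whole of chromosome 17 (12.9%, 13.5%, 13.4% and 14.1%). Over the whole of chromosome 12 the All gRNA libraries were higher (24.97%, 25.9%, 23.9% and 23.8%). With peaks of q ≤ 0.05 the cluster differences changed sign, to 0.0183 points on chromosome 12 and 0.614 on chromosome 17.

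Other intermediate filament genes, and genes whose proteins bind keratin filaments, were read in the same way. Of 15 other intermediate filament genes, none was called higher for H3K4me3 and 1 was called lower, BFSP2, a filament protein of the eye lens (0%, 0%, 45.5% and 43.1%). Among all genes 1.67% were called higher and 1.87% lower. VIM, the mesenchymal filament, LMNA and LMNB1 of the nuclear lamina were fully covered in all 4 libraries. LMNA had a peak of q ≤ 0.05 in each. Of 11 genes whose proteins bind keratin filaments or tie them to junctions, none was called in either direction. PLEC, the linker plectin, was fully covered in all 4, and DSP, the desmosomal anchor desmoplakin, had 100%, 91.5%, 71.6% and 100%. The median of the mean H3K4me3 share was 61.6% in the first list and 90.8% in the second, against 35.4% over the keratins and 90.4% over all genes. For H3K9me3 no gene of either list was called.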

How the data were processed

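Peak lists of native ChIP-seq were analysed for 8 libraries, 2 per group and mark, grouped by their labels. The methods of the study name fastp, bowtie2 with hg38, removal of an exclusion list and of duplicates, and MACS2 broad peaks in each library. The submitters' processing notes list bcl2fastq 2.17, Trimmomatic 0.33, Bowtie 1.1.2 and MACS2 2.1.0, and the difference could not be settled. The deposited values of a peak are the authors' MACS2 output: a score in whole numbers, the fold ratio of enrichment, and p-value and q-value on the −log10 scale. The lists reach down to p of about 0.1. They give no depth, so no counting interval can be stated.

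Peaks were merged within a library with Python 3.11.15 and numpy 2.4.6, and covered shares computed around the Ensembl canonical start of each GENCODE release 44 gene. This start differs from the 5′ end of the gene record at 14 of the 55 keratins. The scripts were tested on simulated data. Single values were compared by two-sided exact permutation over the 6 labellings. Same-numbered libraries did not deviate together (r = 0.0264 for H3K4me3 and 0.0353 for H3K9me3), so numbers were not taken as pairs. No 2 lists shared more than 32 identical intervals.

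The members, classes and gene lists were chosen with earlier results of these data known. Named were all simple and basal keratins, all called members, the highest and lowest of each other class for each mark, those beside the 25-point gap, ZEB1 and VIM as a check, and VIM, LMNA, DSP, PLEC and called genes of the lists. KRT2, KRT6B, KRT16, KRT37, KRT40, KRT72, KRT78, KRT81, KRT83, KRT86, KRT36, LMNB1, FN1, CDH1, EPCAM and ESRP1 were named after their values were seen. No fold change or score was compared between libraries.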

Additional observations from a re-analysis of the deposited data

How the results depend on the processing

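Of 109 alternative values for 10 results, 79 stayed within 1.5 times the count or within the spread of the main value. These include H3K4me3 median differences over keratins of 0, against −9.60 in the main reading, since the spread was wide. They also include counts of H3K9me3 calls that were 0 in both, so 79 is not a count of unchanged effects. The number of keratins called lower in All gRNA for H3K4me3 was 2 with all peaks, 1 at q ≤ 0.05 (KRT80), 0 at q ≤ 0.01, 6 in TSS ± 500 bases (10.9%, against 1.93% of all genes), 3 in TSS ± 2 kb (KRT6C, KRT72 and KRT14, 5.45% against 1.67%), 4 with every list shortened to the same covered length of 623 Mb (7.27% against 1.07%), and 1 with a gap of 50 points (KRT6C). Leaving out 1 library gave 5 to 10 lower and 1 to 5 higher, while 4.35% to 6.61% of all genes were lower and 3.24% to 12.2% higher. Without both libraries whose file carries the other condition, 14 were lower (25.5%, against 14.6% of all genes) and 6 higher (10.9%, against 6.92%). KRT6C and KRT71, called with all 4 libraries, had to stay called with 1 left out, so those runs are no check of them. KRT71 was not called in TSS ± 2 kb, with a gap of 50 points or at q ≤ 0.05, and KRT6C not at q ≤ 0.05. The H3K4me3 median difference over keratins was −3.52 with lists of the same covered length and 0 at q ≤ 0.05, at q ≤ 0.01 and without both libraries. Simple minus hair for H3K4me3 was 38.5 points at q ≤ 0.05 and 18.5 at q ≤ 0.01, and kept its sign under every alternative run. For H3K9me3 it was 0.520 at q ≤ 0.05, −0.0211 at q ≤ 0.01, −6.25 in TSS ± 5 kb, −4.32 in TSS ± 25 kb and −0.514 with the 5′ end of the gene record. The H3K9me3 median difference over keratins was 0 at q ≤ 0.05 and at q ≤ 0.01. Without No gRNA replicate 1, 1 keratin, KRT2, was called lower for H3K9me3 (1.82%, against 0.486% of all genes), and with any other library left out 0. The chromosome 12 cluster difference was 0.0183 at q ≤ 0.05 and 0 at q ≤ 0.01. That of chromosome 17 was 0.614, then −0.0148, and −2.73 with lists of the same covered length. The cause of these changes was not tested. With replicate numbers as a block, 3 keratins were called lower for H3K4me3 (KRT6C, KRT71 and KRT36, 5.45% against 2.57% of all genes). None was called higher (against 2.48%), and no H3K9me3 call changed. Peak lists without counts limit what can be said of weak regions.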
